A study of Homo sapiens with 20 samples.

Results

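Laminins are the cross-shaped glycoproteins of basement membranes, and each is a trimer of 1 alpha, 1 beta and 1 gamma chain. The present account covers 9 genes that encode such chains, the alpha chains LAMA1, LAMA2, LAMA3, LAMA4 and LAMA5, the beta chains LAMB1, LAMB2 and LAMB3, and the gamma chain LAMC1. They were chosen by name and matched through their Ensembl identifiers, and all 9 are listed among the 57500 genes of every library. LAMA3 and LAMB3 encode chains of laminin-332, the laminin of epidermal anchoring, and they were compared with the other 7.

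In skin, basal keratinocytes lay down laminin-332 beneath themselves and hold on to it through hemidesmosomes built on integrin alpha6 beta4, whereas integrin alpha3 beta1 binds it in migrating cells. Keratinocytes at a wound edge are known to deposit laminin-332 ahead of the epidermal sheet. The chain LAMA5 enters laminin-511 and laminin-521, which also lie in the epidermal basement membrane, together with LAMC1 and with LAMB1 or LAMB2. GCN2 is a protein kinase that phosphorylates the translation factor eIF2 when amino acids run short, which starts the integrated stress response.

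RNA was sequenced from NTERT cells, an immortalized human keratinocyte line that forms differentiated epithelial sheets, in 4 groups of 5 libraries. WT cells carried a control guide RNA, and GCN2KO cells were a CRISPR/Cas9-edited pool at early passage, not a clone, so that unedited cells can remain. Each genotype was left unwounded or was collected 6 h after high-density wounding (HDW), in which a grid of scratches places many cells of the sheet beside a wound. HDW samples contain wound-edge and interior cells together, so that a change in all cells and a change in a part of them cannot be told apart. The labels number the replicates, and the study's methods describe them as replicate platings and count replicates as biological. The replicates of a genotype are not described as separate edits. A p-value between genotypes thus measures a difference against the spread among platings. Loss of GCN2 cannot be told apart from other differences between the control and edited cells.

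Libraries held 14083504 to 34611570 counts on genes. EIF2AK4, the gene of GCN2, had 4152 to 4555 normalized read counts in unwounded WT and 806 to 962 in unwounded GCN2KO libraries, and it was 4.86-fold lower in the knockout (log2 fold change -2.28 ± 0.06, SE). Counts are normalized here to the mean effective library size of the 20 libraries. All 8 keratinocyte markers examined (KRT5, KRT14, KRT15, TP63, DSG3, DSC3, SFN and IVL) reached 10 counts in a library, and their summed normalized counts ranged from 475903 to 651757. The markers did not move together between genotypes. In unwounded GCN2KO cells the basal markers KRT15 (log2 -1.88 ± 0.13), KRT14 (-0.85 ± 0.08) and TP63 (-0.52 ± 0.06) and the desmosomal DSC3 (-0.45 ± 0.07) were lower than in WT. IVL, the cornified envelope precursor of differentiating cells, was 3.55-fold higher (1.83 ± 0.13), and the basal keratin KRT5 (0.50 ± 0.08) and SFN (0.17 ± 0.07) were higher too, whereas DSG3 (0.12, adjusted p = 0.141) did not pass. The same 7 markers differed in the same directions after HDW, with KRT15 2.18-fold lower and IVL 3.89-fold higher. The part of these markers in the differences of the chains between genotypes was not tested. A first principal component was taken within each group over the 9629 genes with a mean log2 CPM above 3. In WT HDW libraries it held 68.5% of the within-group variance, and replicate 2 had the largest loading (-0.739). GCN2KO unwounded replicates 3 (0.577) and 5 (0.479) lay on one side of theirs (64.2%). Replicates 1 (-0.184), 4 (-0.329) and 2 (-0.543) of that group lay on the other side. GCN2KO HDW replicate 5 stood apart along its own (69.6%). In the pair of GCN2KO unwounded replicates 3 and 5, 7 of the 9 chains had their lowest values of the group. In GCN2KO HDW replicate 5, 8 of 9 had their highest, LAMB3 being the exception. Calls on a chain that changed without that pair, or without that library, are given with both values.

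The chains spanned a wide range of levels, with the laminin-332 chains on top. Per kilobase of merged exons, LAMB3 was the most abundant chain in every group. Its mean in unwounded WT cells was 15246 ± 2018 normalized counts per kilobase (SD, n = 5). LAMA3 followed at 4020 ± 314, then LAMA5 at 2611 ± 269.96. LAMC1 came next at 1417 ± 37.0, LAMB2 at 1132 ± 44.1 and LAMB1 at 493 ± 44.5. The 3 remaining alpha chains were low, with LAMA1 at 92.2 ± 4.91, LAMA4 at 10.3 ± 1.05 and LAMA2 at 0.221 ± 0.105. No library of one chain overlapped a library of the next in this order in either WT group.

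In GCN2KO cells the order changed in the middle. Unwounded, LAMA5 stood at 968 ± 208 normalized counts per kilobase, overlapping LAMB2 at 1013 ± 154, which itself overlapped LAMC1 at 1175 ± 175. LAMA3 stood at 2671 ± 468, above these 3, and LAMA1 at 19.1 ± 4.02 overlapped LAMA4 at 11.4 ± 2.94. LAMB3 stood at 32435 ± 5702, clear of every other chain. The place of LAMB1 depends on the length used. Its annotated exons merge to 18592 bases and its longest transcript has 6737, and per kilobase of the latter LAMB1 at 1359 overlapped LAMB2 at 1365 in unwounded WT cells. The values of LAMA2 rest on 1 to 20 reads per library, and LAMB4 and LAMC3, laminin genes outside the members, reached at most 4 and 1 reads.

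**Figure D1:**
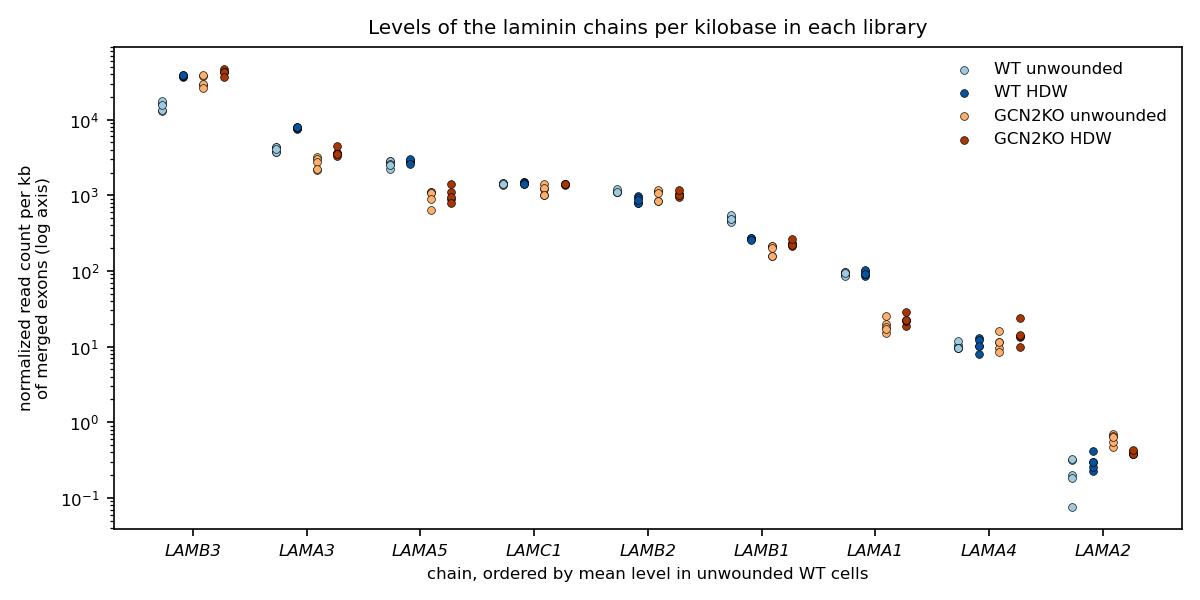
Normalized read counts per kilobase of merged exons (log axis) of 9 laminin chains, with 1 point per library, 5 libraries per group, for WT and GCN2KO cells unwounded and after HDW. LAMB3 lies highest in every group, from a mean of 15246 in unwounded WT to 42215 in GCN2KO HDW cells, and LAMA5 drops to the level of LAMB2 in GCN2KO cells.

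Both laminin-332 chains among the members rose with wounding in WT cells. LAMA3, the alpha3 chain that bears the integrin-binding domain of laminin-332, had 53384, 62757, 53760, 62533 and 58799 normalized read counts in the 5 unwounded WT libraries. After HDW the WT libraries held 111931, 108002, 114047, 117586 and 116752. Every wounded library was above every unwounded one, and the rise was 1.95-fold (log2 fold change 0.96 ± 0.05, SE, edgeR adjusted p = 8.11e-10). LAMB3, the beta3 chain, whose loss causes junctional epidermolysis bullosa, had 60908, 77978, 61862, 81833 and 71664 normalized counts in unwounded WT libraries. Wounded WT libraries held 168574, 176552, 179282, 173550.0 and 180745 of them. Again the groups did not overlap, and LAMB3 rose 2.48-fold (log2 1.31 ± 0.07, adjusted p = 1.40e-09).

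GCN2KO cells started from other levels, lower for LAMA3 and higher for LAMB3. The unwounded GCN2KO libraries had 46120.3, 44144, 31333, 39772 and 32089.7 normalized counts of LAMA3, all below the unwounded WT libraries. LAMA3 was 1.5-fold lower than in WT (log2 -0.59 ± 0.11, adjusted p = 0.000173). For LAMB3 the same libraries had 132783, 176048, 139503, 181905 and 123398 normalized counts, all above the unwounded WT libraries. LAMB3 was 2.13-fold higher than in WT (log2 1.09 ± 0.12, adjusted p = 7.42e-07). A pair of chains that belong to one trimer thus differed from WT in opposite directions before any wound.

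After HDW the GCN2KO libraries held 47878, 51821, 51935, 50278 and 64924 normalized counts of LAMA3. All lay above the unwounded GCN2KO libraries and below every wounded WT library. The rise within the knockout was 1.39-fold (log2 0.47 ± 0.12, adjusted p = 0.0137), and LAMA3 remained 2.13-fold lower than in wounded WT cells (log2 -1.09 ± 0.07, adjusted p = 1.23e-08). LAMB3 had 217811, 200336, 198898, 195552 and 168280.0 normalized counts after HDW in GCN2KO libraries. These overlap the unwounded GCN2KO libraries, and the fitted rise was 1.31-fold (log2 0.39 ± 0.11, adjusted p = 0.0254). That rise of LAMB3 did not pass in 7 of the 10 fits that left out 1 library. With GCN2KO unwounded replicates 3 and 5 left out, the rises were 0.31 for LAMA3 (adjusted p = 0.0633) and 0.27 for LAMB3 (adjusted p = 0.14) on the log2 scale, and neither passed. Wounded GCN2KO and WT cells differed by 0.16 ± 0.06 in LAMB3 (log2, adjusted p = 0.0295) and their libraries overlapped. That difference did not pass with all 20 libraries in 1 fit (adjusted p = 0.163). It also did not pass in 5 of the 10 fits that left out 1 library.

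The wound response of both chains was smaller in GCN2KO cells, by the test of the interaction of genotype and HDW. For LAMA3 the log2 response was lower by 0.50 in the knockout (interaction -0.50 ± 0.14, adjusted p = 0.009), and for LAMB3 it was lower by 0.93 (interaction -0.93 ± 0.14, adjusted p = 4.11e-05). Without GCN2KO unwounded replicates 3 and 5 these terms were -0.68 and -1.06.

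**Figure D2:**
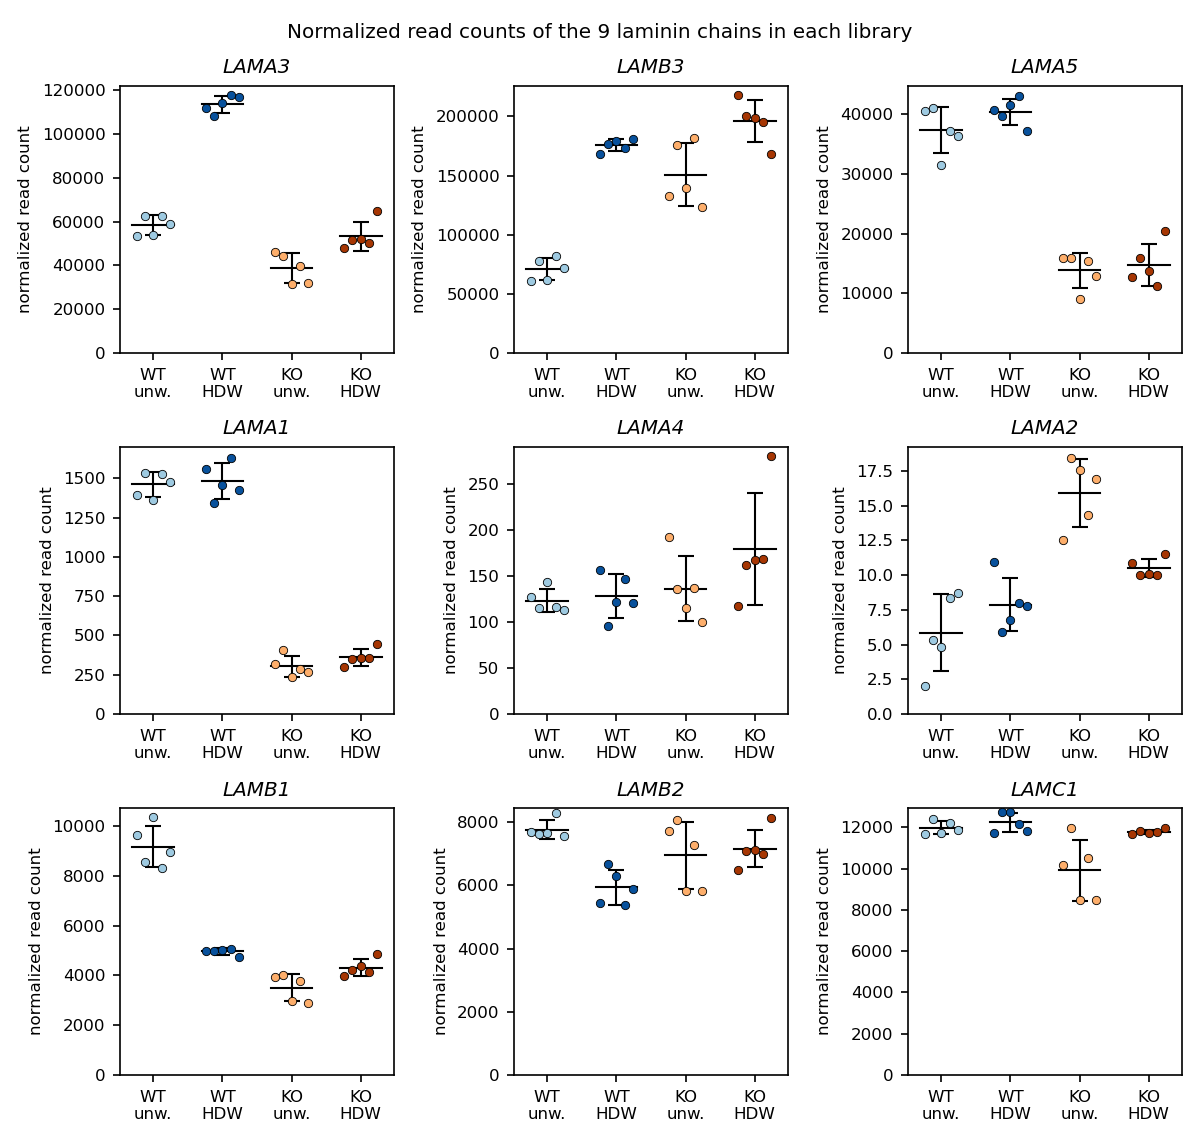
Normalized read counts of each of the 9 laminin chains in each library (y axes start at 0), for WT and GCN2KO (KO) cells unwounded (unw.) and after HDW, with the mean and SD of 5 libraries per group. LAMA3 and LAMB3 are higher in every wounded than in every unwounded WT library, LAMA1 and LAMA5 are lower in every GCN2KO library than in every WT library, and LAMB1 lies between 4745 and 5057 in wounded WT libraries, below all unwounded ones.

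The 2 chains that rose with HDW in WT cells and LAMB1, the one of the 2 falling beta chains with the larger change, are shown with the DNA before their start sites. RefSeq promoters on GRCh38.p14, each from 250 bases before to 50 after a start site, were available for 8 members in 10 windows, and there was none for LAMA1. LAMA3 lies on chr18 from 23689453 to 23956222 on the plus strand, and the RefSeq window of LAMA3 (chr18:23872770-23873069, plus strand) belongs to a start site inside the gene, 183567 bases downstream of its first annotated base. LAMB3 lies on chr1 from 209614870 to 209652425 on the minus strand and has 3 windows. Shown is the third (chr1:209651325-209651624, minus strand), the only one of the 3 that holds the AP-1 element explained below. Its start site lies 1051 bases downstream of the first annotated base of LAMB3, at which the first window has its start site. LAMB1 (chr7:108003112-108003411, minus strand) is shown for contrast. Capitals mark the letters of the AP-1 element TGANTCA, which binds the wound-responsive JUN and FOS factors, and of the GC box GGGCGG, both searched on both strands.
LAMA3: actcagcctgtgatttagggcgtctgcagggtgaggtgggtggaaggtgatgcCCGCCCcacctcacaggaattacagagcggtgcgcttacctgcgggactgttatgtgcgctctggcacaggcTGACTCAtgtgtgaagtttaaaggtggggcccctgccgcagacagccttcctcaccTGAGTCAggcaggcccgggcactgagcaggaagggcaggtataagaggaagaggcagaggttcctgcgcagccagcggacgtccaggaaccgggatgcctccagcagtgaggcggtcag
LAMB3: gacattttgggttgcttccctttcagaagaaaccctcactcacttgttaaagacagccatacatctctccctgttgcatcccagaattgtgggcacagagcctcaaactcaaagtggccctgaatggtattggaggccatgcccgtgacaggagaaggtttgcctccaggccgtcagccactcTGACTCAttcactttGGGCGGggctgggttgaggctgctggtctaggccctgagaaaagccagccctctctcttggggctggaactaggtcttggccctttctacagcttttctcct
LAMB1: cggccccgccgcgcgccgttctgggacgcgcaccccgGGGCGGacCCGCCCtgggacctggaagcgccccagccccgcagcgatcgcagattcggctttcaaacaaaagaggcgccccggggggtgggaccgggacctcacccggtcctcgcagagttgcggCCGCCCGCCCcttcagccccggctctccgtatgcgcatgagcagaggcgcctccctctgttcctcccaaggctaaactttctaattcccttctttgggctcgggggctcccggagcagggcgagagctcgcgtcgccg

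The LAMA3 window holds TGACTCA 125 bases and TGAGTCA 69 bases before the start site, and the third LAMB3 window holds TGACTCA 67 bases before it. No window of the other 6 members with one, nor the first and second of LAMB3, holds these letters. Of 35116 RefSeq promoter windows of the same length, 7.71% hold TGANTCA. The first and second LAMB3 windows overlap and share 1 GC box. The GC box stood in 8 of the 10 windows, with 4 matches in LAMB1 and 5 in LAMA5, against 45.0% of all promoters. The element TGATGNAA, which fits the C/EBP and ATF factors of the integrated stress response, was in no window of a member and in 3.62% of all. These matches describe letters in a short window and say nothing of binding.

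Among the other alpha chains, LAMA5 and LAMA1 were lower in GCN2KO cells. In the main fits neither passed the test for HDW in either genotype. LAMA5, the alpha5 chain of the interfollicular basement membrane, had 40522, 41044, 31453, 37224 and 36325 normalized counts in unwounded WT libraries. The unwounded GCN2KO libraries held 15968, 15925, 9043, 15402 and 12843. Each was less than the lowest WT library, and LAMA5 was 2.69-fold lower (log2 -1.43 ± 0.13, adjusted p = 1.20e-07). After HDW it ranged from 37167 to 43016 in WT and from 11294 to 20371 in GCN2KO libraries, 2.73-fold lower in the knockout (log2 -1.45 ± 0.12, adjusted p = 1.38e-07). The HDW change of LAMA5 was 0.11 ± 0.06 in WT (95% interval -0.02 to 0.25) and 0.11 ± 0.17 in GCN2KO cells (-0.25 to 0.46), on the log2 scale. With every gene kept, the change in WT passed (0.13, adjusted p = 0.0362).

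LAMA1, the alpha1 chain of early embryonic basement membranes, was low but steadily counted in WT cells. Its unwounded WT libraries held 1397, 1536, 1365, 1531 and 1479 normalized counts. In unwounded GCN2KO libraries there were 316, 405, 237, 285 and 270.1. With a 4.88-fold difference (log2 -2.29 ± 0.11, adjusted p = 7.33e-11), LAMA1 had the largest fold between genotypes of the 9 chains in unwounded cells, and it did so after HDW as well (log2 -2.03 ± 0.09, adjusted p = 3.86e-10). Wounded libraries held 1343 to 1630 in WT and 297 to 448 in GCN2KO cells. The HDW change in WT was 0.02 ± 0.05 (95% interval -0.09 to 0.13). In GCN2KO cells it was 0.28 and did not pass. Without GCN2KO unwounded replicate 2 it passed there (0.40, adjusted p = 0.0235), as did the interaction (0.37, adjusted p = 0.0309). Of the exonic bases of LAMA1, 11.1% are shared with antisense genes, which reads counted without regard to strand could not separate.

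LAMA4 and LAMA2 are chains of vessel, fat and muscle laminins. LAMA4 was low, at 64 to 294 reads per library, and LAMA2 was near the lower end of detection. LAMA4 had 114 to 144 normalized counts in unwounded WT, 95.9 to 157 in wounded WT, 100.5 to 193 in unwounded GCN2KO and 118 to 282 in wounded GCN2KO libraries. All 4 groups overlap. Its difference between wounded GCN2KO and WT cells (log2 0.48 ± 0.20, adjusted p = 0.0432) was not past the threshold in 6 of the 10 fits that left out 1 library, those without WT HDW replicate 2, 3 or 5 or GCN2KO HDW replicate 3, 4 or 5. Without GCN2KO HDW replicate 5 it was 0.25 (adjusted p = 0.128). Unwounded, it was 0.14 ± 0.16 (adjusted p = 0.434), and 0.35 (adjusted p = 0.042) without GCN2KO replicates 3 and 5. LAMA2 had 1, 3, 4, 9 and 9 reads in unwounded WT libraries and 11, 12, 20, 17 and 20 in unwounded GCN2KO libraries. The latter were higher (log2 1.29 ± 0.29, adjusted p = 0.00102) and did not overlap the former after normalization. The wounded libraries held 7 to 13 reads in WT and 6 to 13 in GCN2KO cells, with a log2 difference of 0.41 ± 0.22 (adjusted p = 0.182). LAMA2 did not reach the count filter for HDW in WT. In the unwounded comparison it reached that filter only through the GCN2KO libraries, where it is higher. Its call there thus depends on the filter.

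The beta chains other than LAMB3 moved the other way in wounded WT cells. LAMB1, the beta1 chain of most laminins outside the epidermis, had 9617, 8556, 10344, 8312 and 8957 normalized counts in unwounded WT libraries. After HDW there were 4987, 4970.1, 5036, 5057 and 4745. Every wounded WT library was below every unwounded one, and LAMB1 fell 1.85-fold (log2 -0.89 ± 0.05, adjusted p = 3.25e-09). The unwounded GCN2KO libraries held 3919, 3999, 2959, 3782 and 2885 normalized counts, below all WT libraries, wounded ones included. LAMB1 was 2.6-fold lower in unwounded GCN2KO than in unwounded WT cells (log2 -1.38 ± 0.10, adjusted p = 6.45e-09).

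HDW did not lower LAMB1 further in GCN2KO cells. The wounded GCN2KO libraries held 3985, 4204, 4365, 4148 and 4861 normalized counts, and the fitted change was 0.31 ± 0.10 upward (log2, adjusted p = 0.0398). It did not pass in 6 of the 10 fits that left out 1 library. It was 0.26 (adjusted p = 0.0779) without GCN2KO HDW replicate 5, and 0.15 (adjusted p = 0.161) without GCN2KO unwounded replicates 3 and 5, and did not pass either way. The response to HDW differed between genotypes by 1.18 ± 0.12 (log2, interaction, adjusted p = 1.27e-07), the only one of the 9 chains with an interaction of at least 1 in size, and by 1.01 without those replicates. Between wounded groups the difference was small (log2 -0.20 ± 0.05, adjusted p = 0.00237), and the libraries overlapped.

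LAMB2, the beta2 chain of laminin-521, had 7685, 7637, 7654, 8306 and 7569.5 normalized counts in unwounded WT and 5435, 6681, 6310.2, 5375 and 5899 in wounded WT libraries. It fell 1.31-fold with no overlap (log2 -0.39 ± 0.06, adjusted p = 2.85e-05). In GCN2KO cells it ranged from 5827 to 8079.5 unwounded and from 6501 to 8139.6 after HDW, a change of 0.05 ± 0.10 (log2, adjusted p = 0.723; 95% interval -0.16 to 0.27). The interaction was 0.43 ± 0.12 (adjusted p = 0.00996), and 0.27 (adjusted p = 0.0496) without GCN2KO unwounded replicates 3 and 5. LAMB2 was higher in wounded GCN2KO than in wounded WT cells (log2 0.27 ± 0.07, adjusted p = 0.00275).

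LAMC1, the gamma chain shared by most laminins, ranged from 11664 to 12382 in unwounded WT, from 11736 to 12716 in wounded WT and from 11681 to 11945 in wounded GCN2KO libraries. The change with HDW in WT cells was 0.03 ± 0.03 (log2, 95% interval -0.05 to 0.10). Unwounded GCN2KO libraries held 10186, 11947, 8481, 10519 and 8468, and LAMC1 was lower than in WT by 0.27 on the log2 scale (-0.27 ± 0.09, adjusted p = 0.0143). Replicates 3 and 5 were the lowest, and without them the difference was -0.13 (adjusted p = 0.0723).

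**Figure D3:**
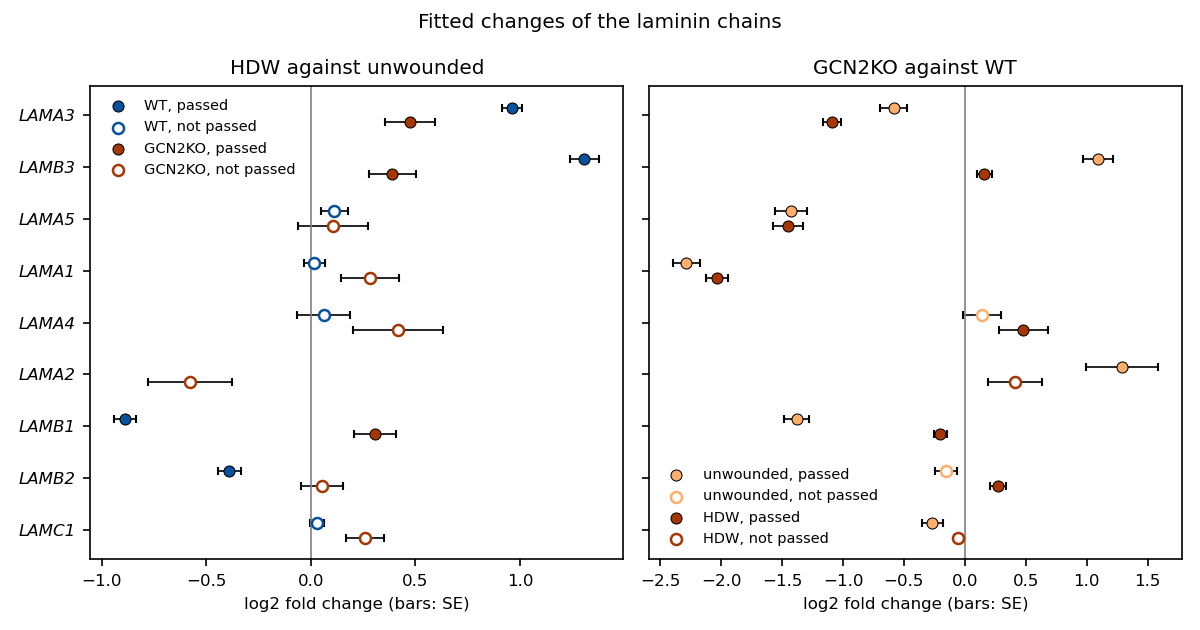
Log2 fold changes with SE (x axes) of the laminin chains for HDW against unwounded in each genotype (left) and for GCN2KO against WT in each state (right), from edgeR fits of 5 against 5 libraries, filled where the adjusted p was at most 0.05. In WT cells LAMA3 lies at 0.96, LAMB3 at 1.31 and LAMB1 at -0.89, whereas in GCN2KO cells the same 3 genes lie between 0.31 and 0.47.

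Counted over the 9 members, HDW in WT cells raised LAMA3 and LAMB3 and lowered LAMB1 and LAMB2, 2 and 2 of 8 tested. Of all 15348 genes tested, 26.1% were higher and 25.2% lower. LAMB3 was the 1 chain whose change also reached 1 in size on the log2 scale, which 4.17% of genes did. The WT groups did not overlap in 4 of the 9 chains, against 36.9% of genes. In GCN2KO cells HDW raised LAMA3, LAMB3 and LAMB1, 3 of 9, against 11.9% of 15791 genes, and 10.8% of genes fell. Of the 10 fits that left out 1 library, LAMB3 did not pass in 7 and LAMB1 in 6. With edgeR 0 chains were lower, and 1, LAMA2, had an unadjusted p under 0.05, while DESeq2 called 0 lower. No chain reached 1 in size, against 0.671% of genes, and 2 of 9 did not overlap between the groups (LAMA3 above, LAMA2 below), against 15.2%. Without GCN2KO unwounded replicates 3 and 5, 0 chains passed in edgeR and 3 (LAMA3, LAMB3 and LAMB1, all higher) had an unadjusted p under 0.05. Without GCN2KO unwounded replicate 2 alone, 5 chains were higher.

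Between genotypes, in unwounded cells 2 of 9 were higher and 5 lower in GCN2KO, against 33.4% and 33.1% of the genes tested. LAMB3 and LAMA2 were past 1 upward and LAMA1, LAMA5 and LAMB1 downward, 5 of 9, against 16.4% of genes. LAMA2 was tested there only because of its reads in GCN2KO libraries, so its place in the unwounded counts is no separate support. In 6 of 9 chains the unwounded genotypes did not overlap, against 53.3% of genes. After HDW 3 chains were higher and 4 lower, against 35.9% and 35.8% of 15855 genes. In the 10 fits that left out 1 library, 1 to 2 chains were higher and 4 lower. LAMB3 did not pass in 5 of those fits and LAMA4 in 6. LAMA1, LAMA5 and LAMA3 were past 1, all downward, 3 of 9 against 14.9%, and the same 3 chains were without overlap, against 57.2%. The interaction passed for 4 of 9 chains, higher for LAMB1 and LAMB2 and lower for LAMA3 and LAMB3, against 11.2% and 12.5% of 16536 genes, and LAMB1 was the 1 chain with a term past 1, against 3.31%. With 9 chains these shares were not tested against the background.

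Ratios between chains within a library do not depend on its depth, and 3 of them set a laminin-332 chain beside another chain, tested by two-sided exact permutation of 5 against 5 libraries (smallest possible p = 0.00794, 12 tests). LAMA3 to LAMA5, the choice of alpha chain between laminin-332 and laminin-511 or laminin-521, was 0.63 ± 0.15 in unwounded WT cells on the log2 scale of levels per kilobase (SD, n = 5). It was 1.47 ± 0.09 in wounded WT, 1.48 ± 0.18 in unwounded GCN2KO and 1.86 ± 0.19 in wounded GCN2KO cells. HDW raised the ratio 1.8-fold in WT (exact p = 0.00794, adjusted p = 0.0119) and 1.3-fold in GCN2KO cells (exact p = 0.0238, adjusted p = 0.0317). LAMA3 accordingly made 59.7% ± 2.46 of the summed alpha chain level in unwounded WT, 72.8% ± 1.18 in wounded WT, 72.9% ± 2.39 in unwounded GCN2KO and 77.7% ± 2.23 in wounded GCN2KO cells. The unwounded knockout reached the ratio of wounded WT cells with less LAMA3 and less LAMA5, whereas WT cells reached it with more LAMA3.

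LAMB3 to LAMB1 had a log2 ratio of 4.95 ± 0.32 in unwounded WT cells. In the other groups it was 7.15 ± 0.07 (wounded WT), 7.42 ± 0.20 (unwounded GCN2KO) and 7.51 ± 0.24 (wounded GCN2KO). The rise with HDW in WT was 4.6-fold and the excess of unwounded GCN2KO over unwounded WT cells 5.56-fold, each with no overlap of libraries (exact p = 0.00794, adjusted p = 0.0119). Within GCN2KO cells the change was 0.08 (log2, exact p = 0.516, adjusted p = 0.563). Wounded GCN2KO exceeded wounded WT cells by 0.36 (exact p = 0.0317, adjusted p = 0.0381), with overlap, and this did not pass at an exact p of 0.0635 in 6 of the 10 sets that left out 1 library.

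LAMA3 to LAMB3, the balance of 2 chains of one trimer, had a log2 ratio of -1.92 ± 0.08 in unwounded WT and -2.27 ± 0.06 in wounded WT cells. In GCN2KO cells it was -3.60 ± 0.27 unwounded and -3.52 ± 0.30 wounded. The ratio was 3.22-fold lower in unwounded GCN2KO than in unwounded WT cells and 2.38-fold lower after HDW (each exact p = 0.00794, adjusted p = 0.0119). HDW lowered it 1.28-fold in WT (exact p = 0.00794), and the change within GCN2KO cells was 0.08 (exact p = 0.587).

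**Figure D4:**
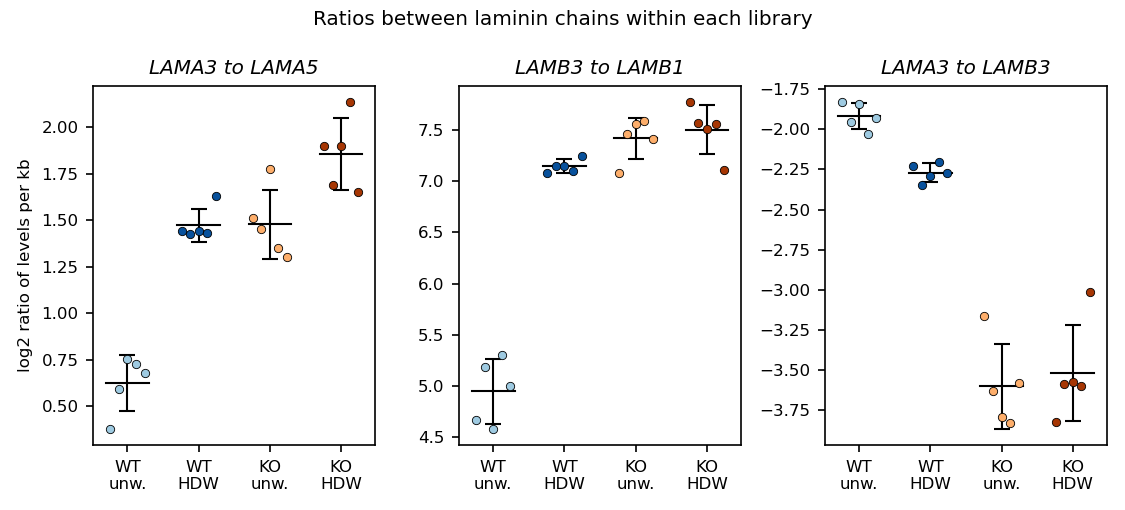
Log2 ratios of levels per kilobase (y axes, which do not start at 0) between pairs of laminin chains within each library, for WT and GCN2KO (KO) cells unwounded (unw.) and after HDW, with the mean and SD of 5 libraries per group. LAMB3 to LAMB1 lies between 4.58 and 5.30 in unwounded WT libraries and at 7.08 or more in all others, and LAMA3 to LAMB3 lies below -3.01 in every GCN2KO library.

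Laminin receptors, which connect the chains to the cytoskeleton, were lower in GCN2KO cells. Of 9 receptor genes tested, 7 were lower in the unwounded knockout and the other 2 did not pass, and the median over the list was -0.67 (log2), against 0.00 over all genes tested. BCAM, a receptor for the alpha5 chain, was lower by 1.82 (-1.82 ± 0.08, adjusted p = 4.72e-11), ITGB4 of the hemidesmosome by 0.95 (-0.95 ± 0.12) and ITGA2 by 0.76 (-0.76 ± 0.09) on the log2 scale. ITGA6, the partner of ITGB4, had -0.73, ITGB1 -0.67, ITGA3 -0.44 and the tetraspanin CD151 -0.22, all passing, whereas DAG1 (-0.17, adjusted p = 0.0696) and ITGA7 (0.16, adjusted p = 0.729) did not. After HDW the same count of 7 was lower, against 35.8% of genes tested, with a median of -0.58. Wounding raised 4 of 9 in WT cells, against 26.1% of genes tested. The amounts were smaller than for LAMA3 and LAMB3, namely ITGA3 by 0.35, ITGA2 by 0.32, ITGA6 by 0.20 and ITGB1 by 0.18. In GCN2KO cells ITGA6 (0.39) and ITGA2 (0.50) rose, as did 11.9% of genes tested. In the interaction test of edgeR 0 of 9 receptors passed, against 11.2% of genes higher and 12.5% lower. One receptor gene, ITGB1, had an unadjusted p under 0.05 and DESeq2 called the same gene lower. ITGB1 also passed without GCN2KO unwounded replicates 3 and 5.

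Most genes of hemidesmosomes and anchoring fibrils followed the receptors. In unwounded GCN2KO cells 4 of 5 were lower, and PLEC did not pass (0.24, adjusted p = 0.191). COL7A1, the anchoring fibril collagen that binds laminin-332, was lower by 1.76 (-1.76 ± 0.11), COL17A1, the hemidesmosomal collagen, by 1.36 (-1.36 ± 0.09) and FERMT1, the integrin activator kindlin-1, by 1.17 (-1.17 ± 0.11). Between wounded genotypes 3 of 5 were lower in GCN2KO cells and 1 was higher, against 35.8% and 35.9% of genes tested. With HDW in WT cells PLEC (log2 0.53 ± 0.10) and FERMT1 (0.32 ± 0.05) rose, as did 26.1% of genes tested, and the other 3 did not pass. Of the 13 other basement membrane genes tested in unwounded cells, 12 were lower in GCN2KO cells and 1 was higher. COL4A2 (-2.54 ± 0.13), FBLN2 (-2.43 ± 0.12) and HSPG2, the gene of perlecan (-2.18 ± 0.16), differed most. The exception, NID2, encodes a nidogen that links laminin to collagen IV, and was higher by 1.39, although 30.7% of its exonic bases are shared with RTRAF.

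Collagen IV genes moved in both directions with HDW in WT cells. COL4A1 (0.83 ± 0.04) and COL4A2 (0.79 ± 0.03) rose, and COL4A5 (-0.50 ± 0.05) and COL4A6 (-0.34 ± 0.04) fell, as did SPARC, a collagen-binding glycoprotein (-0.60 ± 0.05). Of the 13 basement membrane genes tested 5 rose and 7 fell, against 26.1% and 25.2% of all genes tested. In GCN2KO cells COL4A1 (0.96, adjusted p = 0.00174) and COL4A2 (0.85, adjusted p = 0.00265) rose too, and neither passed the interaction test (0.13 and 0.06). COL4A5 (0.08) and COL4A6 (0.08) did not pass there, and their responses differed between genotypes (interaction 0.57 and 0.41, adjusted p = 0.000409 and 0.00514). Among enzymes that cleave laminin chains or activate plasminogen, 5 of 7 were lower and 1 higher in unwounded GCN2KO cells. MMP2, a gelatinase, was lower by 3.76 (-3.76 ± 0.18), PLAU, the urokinase gene, by 1.54 (-1.54 ± 0.10) and BMP1, which trims the alpha3 chain, by 1.45 (-1.45 ± 0.09). PLAT, the tissue plasminogen activator, rose with HDW by 2.39 ± 0.09 in WT and by 0.75 in GCN2KO cells (interaction -1.65, adjusted p = 2.14e-06). TLL1 rose by 0.76 and TLL2 fell by 0.49 with HDW in WT cells.

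**Figure D5:**
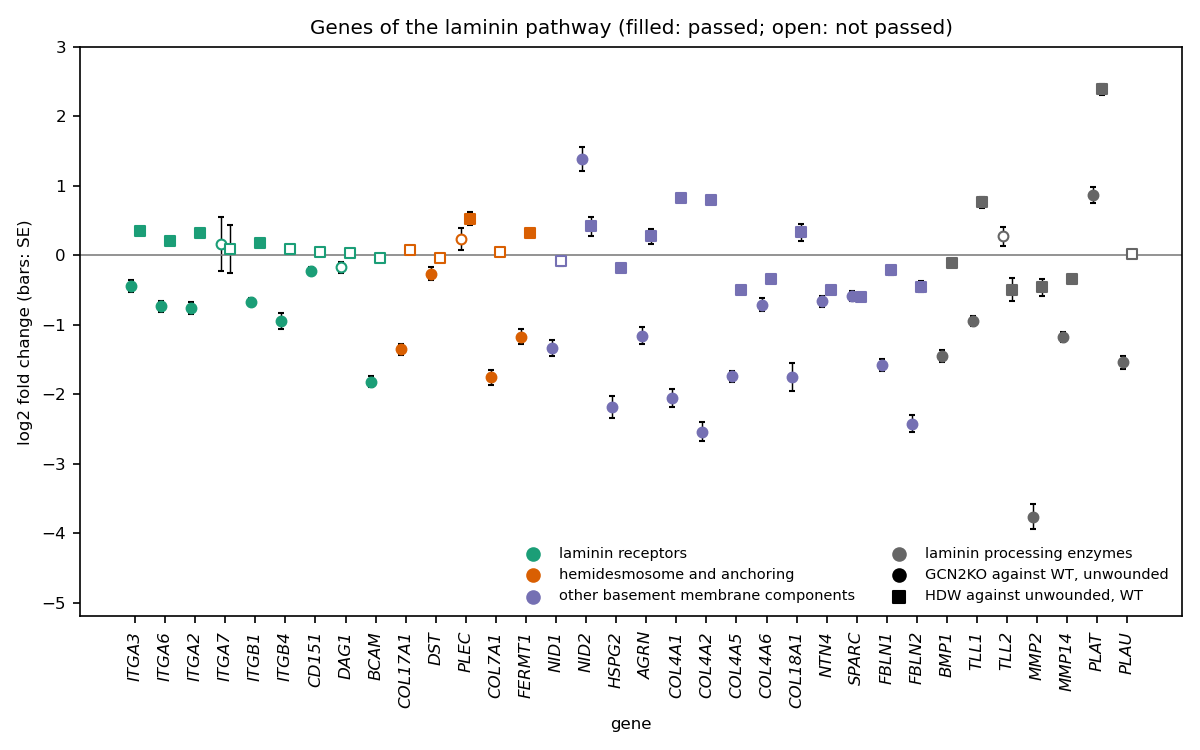
Log2 fold changes with SE (y axis) of laminin receptors, hemidesmosome and anchoring genes, other basement membrane components and laminin processing enzymes (x axis, genes), for unwounded GCN2KO against WT cells (circles) and for HDW against unwounded in WT cells (squares), filled where the adjusted p was at most 0.05. Most circles lie below 0, down to -3.76 for MMP2, with NID2 (1.39) and PLAT (0.87) above it.

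In unwounded cells 33.1% of genes tested were lower in GCN2KO, against 7 of 9 receptors, 4 of 5 anchoring genes, 12 of 13 basement membrane genes and 5 of 7 enzymes. With replicates 3 and 5 of the unwounded knockout left out, these counts were 7, 3, 12 and 5, and 1 anchoring gene was higher. The lists were described by their counts and were not tested as sets.

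Markers of other cell types in which LAMA2, LAMA4 and LAMB1 are common were mostly low. The highest were COL1A1 of fibroblasts, ACTA2 of smooth muscle (236 to 849 reads per library) and the immune marker CD14 (312 to 1729). Of 8 fibroblast markers, 3 or 4 reached 10 counts in a library of each group, and their summed normalized counts were 977 to 1149 in unwounded WT, 857 to 968 in wounded WT, 714 to 947 in unwounded GCN2KO and 751 to 969 in wounded GCN2KO libraries. COL1A2 had at most 5 reads, COL3A1 at most 2 and PDGFRA at most 4 in any library, whereas COL1A1 had 397 to 1023. Of 5 endothelial markers 1 or 2 reached 10 counts, with sums of 10.9 to 37.5. Melanocyte sums were 56.5 to 100.3 with TYR and SOX10 at 0 in all 20 libraries, and smooth muscle sums 327 to 800.1 with MYOCD at 0. Immune sums were 1615 to 1872 in unwounded WT, 899 to 1053 in wounded WT, 702 to 1282 in unwounded GCN2KO and 479 to 1056 in wounded GCN2KO libraries, with PTPRC at no more than 2 reads. The fibroblast and immune sums were lower in wounded WT and in the GCN2KO groups than in unwounded WT libraries, as LAMB1 was. Within GCN2KO cells mean LAMB1 was 3509 unwounded and 4313 after HDW. Mean CD14, the main part of the immune sum, was 785 and 577. CD68 was higher in unwounded GCN2KO than in unwounded WT cells (means 94.8 and 48.5). Smooth muscle sums were higher there too (656 to 800.1 against 497 to 558). The part of these markers in the result for LAMB1 was not tested. The keratinocyte markers KRT15, KRT14, TP63 and DSC3 were lower in GCN2KO cells, where most receptors and anchoring genes were lower too. KRT5, SFN and IVL were higher there, and DSG3 did not pass. The part of the keratinocyte markers in those list counts was not tested.

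Over the 20 libraries, the genes whose log2 CPM followed each chain most closely differed between chains. LAMA3 was closest to PXDN (Pearson r = 0.9905) and ADCY3 (0.9857), and LAMB3 to SLC39A14 (0.9881) and LIPG (0.9818). For LAMA1 they were WDFY1 (0.9949) and LARGE2 (0.9935), and for LAMA5 PACSIN3 (0.9872) and PIGQ (0.9860). LAMB1 ran with PAQR7 (0.9752) and LTB4R (0.9734), LAMB2 with NEO1 (0.9320) and TBC1D2 (0.9155), and LAMC1 with USF3 (0.9678) and SPEN (0.9654). The low chains had looser partners, LAMA2 with TVP23C-CDRT4 (0.8943) and RHOQ (0.8815), LAMA4 with LINC02977 (0.7875) and MUC20 (0.7720). No pair of chains shared a closest gene. The 20 points fall into 4 groups that share genotype and wounding, so these values describe likeness of pattern and are given without a p.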

How the data were processed

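RNA-seq counts were analysed from 20 libraries of NTERT cells, WT or GCN2KO, unwounded or 6 h after HDW, with 5 per group. The authors trimmed reads with Trimmomatic, aligned them to GRCh38 with STAR and deposited raw counts of uniquely mapped reads per gene from featureCounts. The annotation release, strandedness and treatment of overlapping genes are not given in the sources used here. A gene's count does not separate its transcripts, so the LAMA3 forms are pooled. Symbols, positions and lengths came from GENCODE 44 on GRCh38 (56410 of 57500 identifiers matched). Libraries held 14083504 to 34611570 counts.

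Pairs of groups were compared with edgeR 4.0.16 (quasi-likelihood test, TMM, filterByExpr with a minimum count of 10 and total of 15, Benjamini-Hochberg adjustment over all genes tested), and the interaction was fitted to all 20 libraries. A gene passed at an adjusted p of at most 0.05. Intervals used the SE and degrees of freedom of that test. Scripts were tested on simulated data. Ratios used counts plus 0.5 per kilobase of merged exons. Each fit was repeated with every gene kept or with those of mean count below 50 dropped, with other scaling (DESeq2 size factors, or library size by itself), with DESeq2 1.42.0, with the replicate number as a block, with the 20 libraries fitted jointly, and with each library left out in turn. Levels and ratios were repeated with another length or pseudocount. Leaving out GCN2KO unwounded replicates 3 and 5 was added after seeing the data. They hold the lowest unwounded GCN2KO values of 7 of 9 chains. Leaving them out thus raises the unwounded mean of those chains and makes a rise with HDW smaller.

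The members, gene lists and tests were chosen with earlier results of these data known. Named are all members, LAMB4, LAMC3 and the receptors. Some genes are not reported here. Each other list adds the 3 passing genes with the largest change in unwounded GCN2KO against WT and in HDW in WT. The 2 genes with the highest correlation to each member and EIF2AK4 are also named. NID2, COL4A5, COL4A6, the GCN2KO values of COL4A1 and COL4A2 and single markers were named after their values were seen.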

Additional observations from a re-analysis of the deposited data

Results flagged for a closer look

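The response to HDW differed between genotypes in 4 of the 9 laminin chains by the interaction test of edgeR on all 20 libraries. The terms were -0.50 for LAMA3 (adjusted p = 0.009), -0.93 for LAMB3 (adjusted p = 4.11e-05), 1.18 for LAMB1 (adjusted p = 1.27e-07) and 0.43 for LAMB2 (adjusted p = 0.00996), on the log2 scale as GCN2KO minus WT. The laminin-332 chains had the smaller rise in GCN2KO cells, and the beta chains that fell in WT cells did not fall in GCN2KO cells.

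Single libraries stood off from the other 4 of their group by Dixon's ratio in 4 of 48 groups of values, where chance gives about 1 in 20. LAMA3 had its highest GCN2KO HDW value in replicate 5, at 64920.0 normalized read counts. Replicate 5 of WT HDW had the lowest LAMB1 value, 4745, and the highest log2 ratio of LAMA3 to LAMA5, 1.63. LAMB2 was highest in WT unwounded replicate 4, at 8306. Without GCN2KO HDW replicate 5 the rise of LAMA3 in the knockout was 0.39 (log2), the lowest of the 10 values with 1 library left out, and it passed in all 10.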

How the results depend on the processing

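In WT cells the HDW changes of LAMA3, LAMB3, LAMB1 and LAMB2 kept their direction and passed under every alternative and with each library left out. With a mean of at least 50 counts LAMA2 was not tested, which leaves 1 chain higher and 1 past a log2 fold change of 1 upward in unwounded GCN2KO against WT. With library size alone 3 values that do not pass changed sign, the HDW change in WT of LAMA1 (-0.0222) and LAMC1 (-0.0098) and the interaction of LAMA5 (0.0435), and the cause was not tested. Without GCN2KO unwounded replicates 3 and 5, 0 chains rose with HDW in GCN2KO cells, LAMA5 (-0.0863) and LAMB2 (-0.0951) changed sign there, and 1 chain, LAMB3, had an interaction past 1 downward. Leaving out 1 library gave 1 to 2 chains higher for GCN2KO against WT after HDW (1 without GCN2KO HDW replicate 3), 1 to 5 higher for HDW in GCN2KO cells (5 without GCN2KO unwounded replicate 2; 1 without GCN2KO unwounded replicate 3 or 5 or GCN2KO HDW replicate 2, 3 or 4) and 2 to 4 higher for the interaction (4 without GCN2KO unwounded replicate 2). The log2 values ranged from -0.0155 to 0.2443 for LAMA4 in unwounded GCN2KO against WT, and for HDW in WT from -0.0182 to 0.0484 for LAMA1 and from -0.0215 to 0.1502 for LAMA4. For HDW in GCN2KO cells they ranged from -0.0405 to 0.1863 for LAMA5 and from -0.0123 to 0.1115 for LAMB2, and for the interaction of LAMA5 from -0.1627 to 0.062. Ratios ranged from 0.29 to 0.46 for LAMB3 to LAMB1 between wounded genotypes, and for HDW in GCN2KO cells from -0.0004 to 0.18 for LAMB3 to LAMB1 and from -0.0459 to 0.1902 for LAMA3 to LAMB3. LAMC1 for HDW in GCN2KO cells (adjusted p = 0.0522) passed with 5 alternatives, at 0.00785 to 0.0483. Same-numbered replicates did not deviate together (mean correlations of -0.109 to 0.0332). The replicate block ended 2 calls, LAMB3 in wounded GCN2KO against WT (log2 0.15, adjusted p = 0.0519) and LAMB1 for HDW in GCN2KO cells (0.32, adjusted p = 0.0868), and changed no other call of a chain. Levels per kilobase moved with the length used in 32 of 36 values. LAMA2 rests on 1 to 20 reads per library.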
